A study of Mus musculus with 3 samples.

Results

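The Ly49 receptor genes Klra4, Klra5, Klra6, Klra7 and Klra8 and the related lectin gene Klre1 were followed across T cells and CD3-negative lymphocytes of the mouse duodenum. These 6 genes, matched by symbol among 32285 genes, were chosen with their levels and their co-detection in these cells already known, so levels by cell type are given as a description without a test. Droplet RNA sequencing of the 3' transcript ends had been done on C57B6/J mice, male by the series title, 30 days after injection of saline or of alpha-synuclein preformed fibrils (PFF, aggregated protein that seeds further aggregation) into the duodenal wall. There were 3 libraries: saline 1 and PFF 1 were labelled batch 1 and saline 2 was labelled batch 2. Each combined cells sorted for CD45, the pan-leukocyte surface protein, with cells enriched on CD11b beads, and the labels do not give the number of mice per library. Both saline files also held the same 3 wells, with 1509, 3648 and 8732 cells and identical counts in every cell, and these shared wells were counted once. The data therefore come from 4 sources of cells: the own well of saline 1, the own well of saline 2, the shared saline wells, and PFF 1. The mice and the batch of the shared wells are not stated, so they may not be independent of saline 1 and saline 2.

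Ly49 receptors are C-type lectins of mouse natural killer (NK) cells and some T cells, encoded side by side in the NK gene complex. Most of them bind class I MHC molecules. The inhibitory receptors Ly49E (Klra5), Ly49F (Klra6) and Ly49G (Klra7) recruit phosphatases such as those encoded by Ptpn6 and Ptpn11, which dampen activation. Ly49D (Klra4) and Ly49H (Klra8) lack that motif and signal through the adapter encoded by Tyrobp. Klre1 encodes a lectin that pairs with the products of Klri1 or Klri2, an inhibitory and an activating partner respectively. In the gut, natural intraepithelial T cells carry either a gamma-delta receptor or an alpha-beta receptor with CD8 alpha-alpha homodimers, and are known to share surface receptors with NK cells.

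The 5 Klra members are transcribed from the minus strand of chromosome 6 and Klre1 from the plus strand (6:129577905-129585827, GRCm38). Their promoters are shown because the receptors differ in which cells carry them while the sequence before the RefSeq gene start is similar. The windows below are taken from RefSeq (build GRCm38.p6), read 5′ to 3′ on the minus strand, and the capitals mark the longest string that all 5 windows share.
Klra4, chr6:130067272-130067357: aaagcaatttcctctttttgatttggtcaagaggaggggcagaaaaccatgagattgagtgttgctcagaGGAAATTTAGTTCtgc
Klra8, chr6:130129900-130129985: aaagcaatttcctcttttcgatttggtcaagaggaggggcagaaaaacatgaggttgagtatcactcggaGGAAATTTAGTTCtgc
Klra5, chr6:129913236-129913321: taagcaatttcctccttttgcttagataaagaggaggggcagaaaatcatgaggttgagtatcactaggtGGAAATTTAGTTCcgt
Klra6, chr6:130026995-130027080: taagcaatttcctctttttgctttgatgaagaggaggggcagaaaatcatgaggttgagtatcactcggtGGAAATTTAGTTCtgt
Klra7, chr6:130233333-130233418: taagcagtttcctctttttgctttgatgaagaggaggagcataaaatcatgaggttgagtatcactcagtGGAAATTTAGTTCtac
The activating pair Klra4 and Klra8 were identical at 91.9% of the 86 bases. Klra5 and Klra6 were identical at 94.2%, Klra6 and Klra7 at 93.0%, and Klra5 and Klra7 at 87.2%. Identity between an activating and an inhibitory gene ranged from 81.4% (Klra4 and Klra5) to 90.7% (Klra6 and Klra8), so it overlapped with that within a kind. The shared string GGAAATTTAGTTC, searched on both strands, occurred in 6 of 32851 promoter windows (0.0183%), all of them windows of these 5 genes. It was not in the windows of the other 6 Ly49 genes nor in those of Klre1. The GENCODE M21 annotation starts Klra5 further upstream (6:129898996-129917650, GRCm38), so the Klra5 window lies inside the gene by that annotation, while the other 4 windows lie before its gene starts. The string was picked because the 5 genes share it, so the match is a description of the letters only.

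Cells were placed in classes by the UMIs (counted molecules) of a few defining genes. The Trdc class held T cells with the gamma-delta receptor constant gene Trdc, with 2945, 939, 3530 and 3477 cells in saline 1, saline 2, the shared wells and PFF 1. The CD8 alpha-alpha class (Trac and Cd8a detected, with 0 UMIs of Trdc, Cd8b1 and Cd4) held 1113, 276, 1531 and 1316 cells. The CD8 alpha-beta class held 48, 16, 608 and 142 cells, the CD4 class 3, 9, 84 and 59, and the CD3-negative lymphocyte class 27, 26, 80 and 60. Median depth in the Trdc class was 3153, 8528, 5367.5 and 8079 UMIs per cell in the same order. Ptprc, which encodes CD45, was detected in 98.2% to 99.8% of CD8 alpha-alpha cells, whereas 51.4%, 76.8%, 58.2% and 74.2% of Trdc cells in the 4 sources also held a Trac UMI, so the Trdc class is defined by a transcript and not by a receptor chain pair. The same holds for the CD8 alpha-alpha class: a cell with Trac and Cd8a whose Trdc or Cd8b1 transcript was missed can fall in it. How many such cells it held was not tested. Of the CD3-negative cells, 16.7% to 27.5% held a UMI of Ncr1, an NK receptor gene that does not define NK cells alone. A UMI of Trbc1 was held by 33.3% to 46.2%, so that class is a mixture. The class rule excluded cells with 3 UMIs of epithelial genes, a list that held Epcam and Cdh1. T cells of every source carried Cdh1 (39.5% to 66.5% of CD3 cells) and Epcam (26.5% to 71.2%). The exclusions put 561, 2199, 2704 and 5650 CD3 cells of the 4 sources in no class, of which 479, 1881, 2172 and 4811 returned with Epcam and Cdh1 off the list. Shares recomputed without those 2 genes in the list are given for the members together and for some single members.

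Klra5, encoding the inhibitory Ly49E, was the most abundant member in intraepithelial T cell classes. In CD8 alpha-alpha cells it was detected in 37.5% (95% exact interval 34.6 to 40.4) of saline 1 cells, 40.6% (34.7 to 46.6) of saline 2 cells, 46.0% (43.5 to 48.6) of shared-well cells and 31.8% (29.3 to 34.4) of PFF 1 cells. Its level there was 623, 705, 694 and 498 CPM (the gene's UMIs scaled to the same total of UMIs in every class and source). Among Trdc cells it was detected in 13.5%, 16.3%, 31.2% and 13.1% of cells, at 228, 216, 453 and 144 CPM. Every source thus had the higher level in CD8 alpha-alpha cells, and the shared wells stood above the other sources in the Trdc class. The 3 shared wells each showed this, with 30.2%, 25.9% and 32.0% of Trdc cells positive and 550.5, 398 and 452 CPM. Within the Trdc class, Klra5 was detected in 14.6%, 17.0%, 33.1% and 13.6% of cells with a Cd8a UMI, against 3.45%, 2.22%, 10.997% and 3.66% of cells without one. Trdc cells with no Trac UMI also held it, at 11.7%, 17.9%, 26.7% and 12.5%. In CD8 alpha-beta cells the shares were 12.5%, 18.8%, 6.09% and 7.04%, and in CD3-negative lymphocytes 7.41%, 7.69%, 6.25% and 6.67%. The CD8 alpha-beta value of PFF 1 depends on the class rule: without Epcam and Cdh1 in the exclusion list the shares were 12.2%, 25.5%, 8.04% and 17.1%. B cells, which should lack the gene, gave at most 3.41% at median depths of 4279 to 7188 UMIs, and CD4 cells at most 5.95%. Intervals cover counting error only.

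Klra6 and Klra7, encoding the inhibitory Ly49F and Ly49G, were rarer than Klra5, and both were lower in the Trdc class than in CD8 alpha-alpha cells. Klra6 was detected in 7.46%, 10.1%, 8.16% and 15.7% of CD8 alpha-alpha cells of saline 1, saline 2, the shared wells and PFF 1, at 54.4, 47.8, 43.9 and 75.8 CPM. Its level in the Trdc class was 5.46, 2.72, 7.85 and 6.61 CPM. Klra7 followed with 59.6, 61.8, 45.5 and 82.8 CPM in CD8 alpha-alpha cells and 9.42, 1.48, 9.76 and 5.00 CPM in the Trdc class. Both genes were thus several times lower in the Trdc class in all 4 sources. CD8 alpha-alpha cells were not always the highest class: Klra7 was at 67.2 CPM in CD8 alpha-beta cells of saline 1 and at 77.3 CPM in CD3-negative cells of the shared wells, from 3 positive cells each. Klra6 was at 48.8 CPM in CD8 alpha-beta cells of saline 2, from 2 positive cells, and at 28.7 CPM there without Epcam and Cdh1 in the exclusion list. Unlike Klra5, Klra7 was detected more often in Trdc cells without a Cd8a UMI in saline 1, the shared wells and PFF 1 (2.07%, 3.09% and 3.14%, from 6, 9 and 6 cells) than in those with one (0.83%, 1.02% and 0.97%), with no such cell in saline 2. UMIs of 3' ends count molecules whatever the transcript's length, so these levels can be set beside each other: Klra5 stood above both in CD8 alpha-alpha cells of every source.

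Klre1, the lectin with Klri1 and Klri2 as partners, was the second most abundant member in CD8 alpha-alpha cells, level with Klra7 in the shared wells, and was also found in CD3-negative cells. It was found in 19.8%, 26.1%, 13.6% and 38.8% of CD8 alpha-alpha cells of saline 1, saline 2, the shared wells and PFF 1, at 112, 133, 45.5 and 173 CPM. Among Trdc cells it was found in 5.98%, 11.5%, 6.997% and 13.6% of cells. In CD3-negative lymphocytes its shares were 25.9%, 7.69%, 28.7% and 13.3%, with wide intervals from 26 to 80 cells. In CD8 alpha-beta cells of PFF 1 it was at 11.8 CPM, and at 31.8 CPM without Epcam and Cdh1 in the exclusion list. The inhibitory partner Klri1 was at 37.3, 74.0, 40.3 and 71.2 CPM in CD8 alpha-alpha cells, and the activating partner Klri2 at 4.95, 7.62, 4.26 and 7.52 CPM. In CD3-negative cells Klri2 was higher, at 229, 11.9, 124 and 93.9 CPM.

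Klra4 and Klra8, encoding the activating Ly49D and Ly49H, were detected in 0 to 11.1% and 0 to 7.50% of CD3-negative cells, and in under 0.4% of the cells of either intraepithelial T cell class. Over all cells that passed the filters, 62.6% of Klra4 UMIs and 53.8% of Klra8 UMIs lay in cells that the rules put in no class, against 48.1% to 52.8% for the other 4 members. Klra4 gave 14, 0, 25 and 0 UMIs in the CD3-negative cells of saline 1, saline 2, the shared wells and PFF 1, in 3, 0, 5 and 0 cells. Among 4236 CD8 alpha-alpha cells it gave 8 UMIs in all, at 1 UMI per cell. Klra8 gave 31, 0, 26 and 16 UMIs in CD3-negative cells, 1 UMI in CD8 alpha-alpha cells, and in the Trdc class 8 UMIs in 2 shared-well cells and 45 in 2 PFF 1 cells. A count of 0 is compatible with up to 3 counts, so the 0 of 26 CD3-negative cells of saline 2 allow a share of cells with a UMI of up to 11.5%, and the 0 of 60 PFF 1 cells for Klra4 up to 5.00%. These limits are not limits on the cells that express the genes. With Epcam and Cdh1 off the exclusion list, Klra4 was found in 3.85% of PFF 1 CD3-negative cells, so the 0 there depends on the class rule. Trdc cells of the shared wells then held 58 Klra8 UMIs in 7 cells and 32 Klra4 UMIs in 5. CD3-negative cells with an Ncr1 UMI carried most of these transcripts: Klra8 was detected in 7 of 45 such cells (15.6%) against 3 of 148 without Ncr1 (2.03%), and Klra4 in 5 (11.1%) against 3 (2.03%). Klre1 was detected in 32 of the 45 (71.1%) and in 8 of the 148 (5.41%), with 5 of 7, 2 of 6, 19 of 22 and 6 of 10 Ncr1-positive cells in saline 1, saline 2, the shared wells and PFF 1. Of the 15 CD3-negative cells with Klra4 or Klra8, 14 also held Klre1, 8 held an inhibitory Klra gene and 3 held both activating genes. These cells are few, and their counts are pooled over the 4 sources. The split by Ncr1 was not adjusted for depth. CD3-negative cells with any member had median depths of 4368.5, 5548.5, 3945 and 5871.5 UMIs in the 4 sources, against 2265, 3976, 1984 and 4172.5 without.

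Seen over all 6 members, 48.3% (45.4 to 51.3), 55.1% (49.0 to 61.0), 54.1% (51.6 to 56.6) and 58.3% (55.6 to 61.0) of CD8 alpha-alpha cells held at least 1 UMI. Trdc cells gave 18.9%, 25.2%, 35.0% and 24.5%, and CD3-negative cells 29.6%, 15.4%, 33.8% and 20%. CD8 alpha-beta cells gave 18.8%, 50%, 8.22% and 13.4%, the 50% from 16 cells of saline 2. Without Epcam and Cdh1 in the exclusion list the CD8 alpha-beta shares were 18.4%, 42.6%, 10.6% and 22.9%. CD4 cells gave 0, 0, 8.33% and 3.39%, and B cells, which should lack the receptors, 0, 0, 3.75% and 2.08%. In the shared wells, at median depths of 5193 and 5234 UMIs, the CD4 share (7 of 84 cells, 95% interval 3.42 to 16.4) was above that of B cells (1.89 to 6.62), with intervals that overlap. With every cell thinned to 2000 UMIs, leaving out 71, 21, 23 and 11 shallower cells, the CD8 alpha-alpha shares were 44.3%, 47.1%, 46.8% and 45.4%. Thinned Trdc shares were 17.0%, 17.8%, 28.9% and 16.1%, so the shared wells remained above the others. The classes were assigned before thinning, so which cells a class holds can still depend on depth. Without Epcam and Cdh1 in the exclusion list the CD8 alpha-alpha shares were 49.5%, 60.7%, 55.0% and 59.9%, and the Trdc shares 19.6%, 29.6%, 36.0% and 27.7%.

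**Figure D1:**
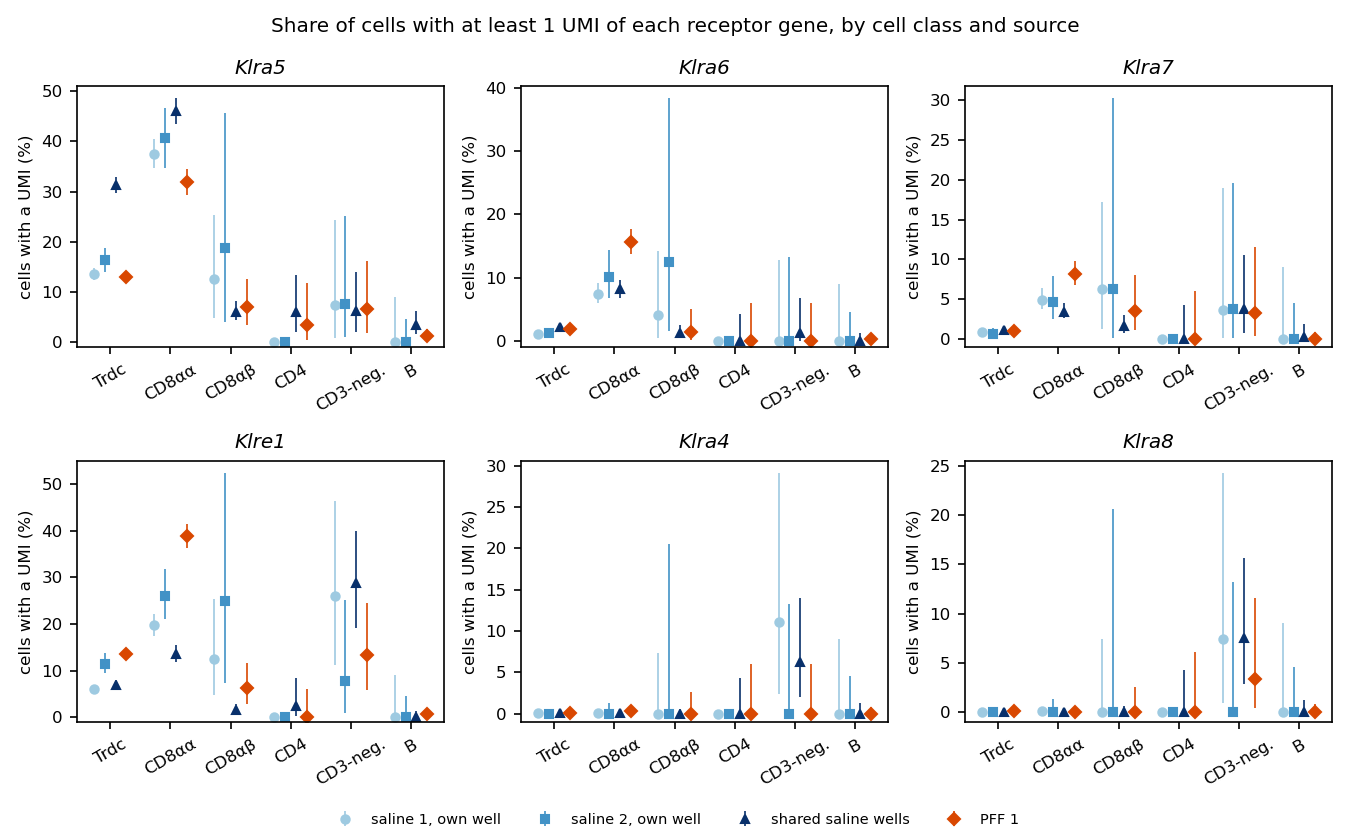
Share of cells (%) with at least 1 UMI of each of the 6 genes, by cell class and source, with exact 95% binomial intervals that cover counting error only (none drawn for groups under 10 cells; the vertical scale differs between panels). Klra5 is highest in CD8 alpha-alpha cells in every source (31.8% to 46.0%), Klre1 reaches 38.8% there and 28.7% in CD3-negative cells, and Klra4 and Klra8 stand highest in CD3-negative cells (up to 11.1% and 7.50%).

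Several receptors were often detected in the same CD8 alpha-alpha cell. Of the cells positive for any member, 32.7%, 35.5%, 26.1% and 44.2% held 2 or more members in saline 1, saline 2, the shared wells and PFF 1, and 28.1%, 26.7%, 14.9% and 31.1% did so after thinning to 2000 UMIs. Klra6 and Klra7 were the pair most often found together. Klra6 was detected in 50.9%, 69.2%, 54.7% and 71.3% of Klra7-positive cells, against 5.20%, 7.22%, 6.495% and 10.7% of Klra7-negative cells. The number of cells with both was 6.83, 6.70 and 4.55 times the product of the 2 shares in saline 1, the shared wells and PFF 1; saline 2 had too few such cells (product 1.32) for a ratio. Klre1 went with both, at 2.93, 2.33, 2.77 and 1.68 times the product for Klra6+Klre1 and 3.40, 2.95, 2.92 and 2.05 times for Klra7+Klre1. Klra5, the most abundant, was close to the product with Klra6 (Klra5+Klra6: 1.25, 0.97, 0.90 and 1.296 times) and with Klra7 (Klra5+Klra7: 1.36, 1.14, 1.02 and 1.42 times). With Klre1 it stood at 1.55, 1.44, 1.52 and 1.36 times (Klra5+Klre1).

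Thinning left this order in place where enough cells remained. The thinned values were 5.24 for Klra6+Klra7 in PFF 1, 3.71, 3.16 and 2.03 for Klra6+Klre1 in saline 1, the shared wells and PFF 1, and 0.84 to 1.24 for Klra5+Klra6. Of the 90-base strings in the last 500 bases of their transcripts, none is shared between any of the 6 members, and 6.57% of those of Klra7 recur in the pseudogene Klra13-ps, which was not analysed here. The part of read assignment between paralogs, and of droplets with 2 cells, was not tested. Among Trdc cells, where the members are rarer, 11.8%, 15.6%, 17.0% and 18.4% of positive cells held 2 or more. There the Klra5+Klre1 pair stood at 1.85, 1.76, 1.94 and 1.88 times the product. Klra5 was also above the product with Klra6, at 2.96, 2.04 and 2.06 times in saline 1, the shared wells and PFF 1. With Klra7 it stood at 1.59, 1.22 and 2.22 times in the same sources. Klra6+Klre1 stood at 4.45 and 3.84 times in the shared wells and PFF 1, and Klra7+Klre1 at 3.10 in PFF 1. The remaining Trdc products were under 3 cells.

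**Figure D2:**
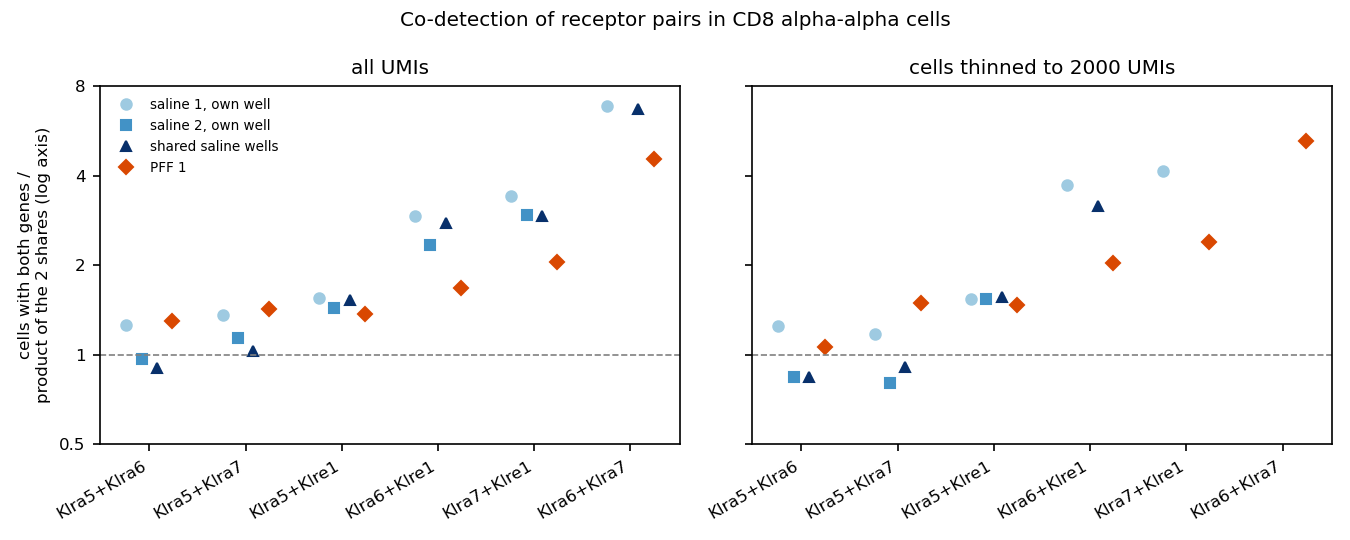
Number of CD8 alpha-alpha cells with both genes of a pair divided by the product of the 2 shares times the cells (log axis; the dashed line at 1 is the product itself), by source, with all UMIs and with cells thinned to 2000 UMIs. Points are left out where the product is under 3 cells. Klra6+Klra7 lies highest, at 4.55 to 6.83, and the Klra5 pairs lie nearest to 1.

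Of the other Ly49 genes, Klra3 and Klra1 were detected in the same T cell classes at low levels. Klra3 gave 182, 95, 251 and 346 UMIs in the Trdc class and 76, 54, 107 and 202 in CD8 alpha-alpha cells of saline 1, saline 2, the shared wells and PFF 1. Klra1 gave 71, 38, 153 and 175 UMIs in CD8 alpha-alpha cells and 2, 0, 47 and 45 in the Trdc class. Across 24 sums of a class and a source, the genes whose log2(CPM + 1) was most like that of the 6 members summed were Gm33104 (Pearson r 0.97), Gm10874 (0.97), Kit (0.97), Pygl (0.97), Ccdc102a (0.97), Klrb1a (0.97), Aoah (0.96) and Ptpn5 (0.96), out of 10742 genes. Kit encodes the stem cell factor receptor, Klrb1a an NKR-P1 lectin and Aoah an enzyme that inactivates lipopolysaccharide. The members of that sum share libraries and depth, so the r is a description: Kit, for example, was at 149, 113, 160 and 128 CPM in CD8 alpha-alpha cells and at 0, 0, 2.19 and 1.80 CPM in B cells. Between the Trdc class and CD8 alpha-alpha cells Kit did not follow the members. It was at 151, 137, 157 and 156 CPM in the Trdc class. The members summed were at 273, 260, 499 and 205 CPM there, against 849, 947, 829 and 830 CPM in CD8 alpha-alpha cells.

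The design asks whether fibril injection changed these lymphocytes. In CD8 alpha-alpha cells none of the 4 members tested passed the test between PFF 1 and the 2 saline libraries, although all 4 values of PFF 1 lay outside the range of the saline sources. Counts summed per library and class were compared with edgeR's quasi-likelihood test with Benjamini-Hochberg adjustment, the own wells of saline 1 and saline 2 against PFF 1, which leaves 1 residual degree of freedom. That test called 8 of 11631 genes (0.0688%) in CD8 alpha-alpha cells, 3 higher (0.0258%) and 5 lower (0.043%), and no member among them. Klra5 was at 498 CPM in PFF 1 and at 623 and 705 in the saline libraries, a log2 change of -0.42 ± 0.22 (SE; edgeR adjusted p = 0.827). Klra6, at 75.8 against 54.4 and 47.8 CPM, gave 0.56 ± 0.19 (adjusted p = 0.415). Klra7, at 82.8 against 59.6 and 61.8 CPM, gave 0.45 ± 0.19 (adjusted p = 0.639). Klre1, at 173 against 112 and 133 CPM, gave 0.49 ± 0.20 (adjusted p = 0.581). The shared wells, not used in that fit, were at 694, 43.9, 45.5 and 45.5 CPM for Klra5, Klra6, Klra7 and Klre1, on the saline side of PFF 1 for each gene. Within batch 1, PFF 1 over saline 1, the log2 values were -0.28, 0.51, 0.51 and 0.66. Thinned to 2000 UMIs, PFF 1 was again outside the range of the saline sources for Klre1 and Klra5. Klre1 was detected in 19.2% of its CD8 alpha-alpha cells against 14.7%, 15.7% and 5.90%, and Klra5 in 28.4% against 35.3%, 37.3% and 41.1%. For Klre1 the saline sources themselves spread from 5.90% to 15.7%, more widely than the gap from 15.7% to 19.2%. With 1 PFF library, treatment and library cannot be told apart.

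None of 13162 genes was called by edgeR in the Trdc class (0.0%); 480 had an unadjusted p under 0.05, and DESeq2 made 1 call, a lower gene. Klra5 was at 144 CPM in PFF 1 against 228 and 216, a log2 change of -0.62 ± 0.18 (edgeR adjusted p = 0.999), while the shared saline wells were at 453 CPM. Without Epcam and Cdh1 in the exclusion list Klra5 was at 191 CPM in PFF 1 against 228.5 and 254, a smaller log2 change of -0.33. It was then detected in 15.3% of PFF 1 Trdc cells, between 14.2% in saline 1 and 19.0% in saline 2. Under the main rule Klre1, at 47.9 CPM against 30.5 and 39.8, gave 0.44 ± 0.22, and Klra6, at 6.61 against 5.46 and 2.72, gave 0.69 ± 0.44. Klra7 lay between the saline libraries, at 5.00 CPM against 9.42 and 1.48, and its sign turned with the library left out, from -0.86 against saline 1 alone to 1.64 against saline 2 alone. Klra8 passed the low-count filter only through PFF 1, where 2 cells held 45 UMIs, 23 of them in 1 cell. Both saline wells held 0 UMIs and the shared wells 8. Without Epcam and Cdh1 in the exclusion list the shared wells held 58 UMIs in 7 cells, against 45 in 2 cells of PFF 1. With the low-count filter dropped, Klra8 was among the genes called higher, a call that rests on those 2 cells. Klra4 was not tested in either class, nor was Klra8 in CD8 alpha-alpha cells. Had both saline files been used as deposited, with the shared wells in each, the same test would have called 895 genes higher and 1136 lower in the Trdc class, and 1342 and 1345 in CD8 alpha-alpha cells. That count rests on cells entered in both saline libraries.

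**Figure D3:**
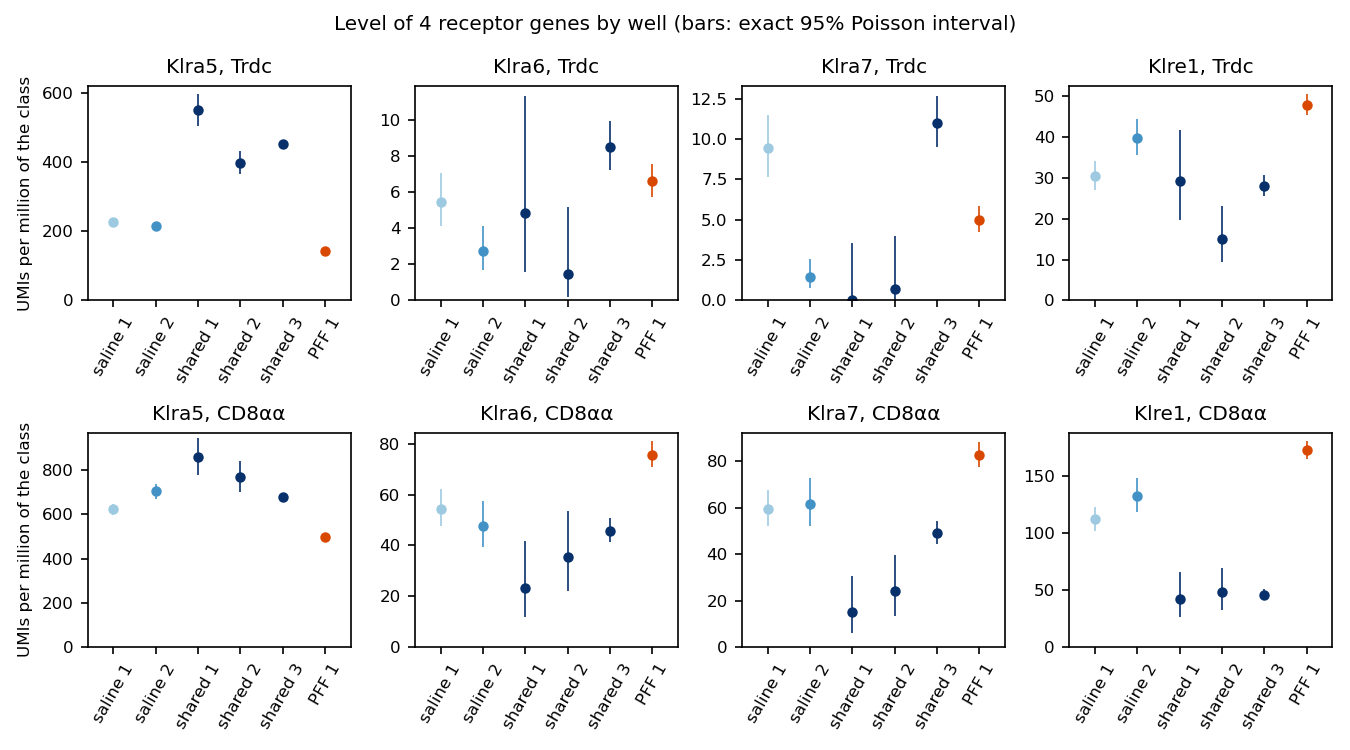
Level of Klra5, Klra6, Klra7 and Klre1 (CPM of the class) in the Trdc class (upper row) and CD8 alpha-alpha cells (lower row), by well, with exact 95% Poisson intervals that cover counting error only; scales differ between panels. In CD8 alpha-alpha cells PFF 1 is lowest for Klra5 (498) and highest for the other 3, while the saline wells themselves spread widely, for example from 42.5 to 133 for Klre1.

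Cells with at least 1 UMI of any of the 6 members, Klre1 included, were called Ly49-positive. They were then compared with cells of the same class and source that carried none. Part of the positive cells held Klre1 alone. Among 10891 Trdc cells, 2274 held Klra5, Klra6 or Klra7 and 8 held Klra4 or Klra8. Positive Trdc cells numbered 558, 237, 1237 and 853 in saline 1, saline 2, the shared wells and PFF 1. In the Trdc class, Ly49-positive cells held more transcripts of NK lectins, of Tyrobp and of Zbtb16, which encodes the innate-like T cell factor PLZF, and fewer of Thy1, Cd6, Il7r, Ccr9 and Bcl11b. UMIs were summed per source and state, the 6 members were taken out of the table because they choose the cells, and edgeR's quasi-likelihood test was run with the source as a block over the 4 sources. It called 482 of 12750 genes higher (3.78%) and 302 lower (2.37%) at an adjusted p under 0.05, and 718 of these 784 (6.15% in all) had the same sign in all 4 sources. Leaving out PFF 1 gave 299 and 198 calls, leaving out the shared wells 356 and 177, and leaving out saline 1 328 and 200. Positive cells were somewhat deeper, with medians of 3523 against 3064, 9684 against 8228, 5730 against 5171 and 8757 against 7890.5 UMIs; with every cell thinned to 2000 UMIs, 269 and 144 genes were called. With no block for the source, 2 genes were called higher and 8 lower. Negative cells include cells whose receptor transcripts were missed at this depth. The 2 states also differ in make-up. Of Trdc cells with a Cd8a UMI, 20%, 26.3%, 36.6% and 25.4% were positive in saline 1, saline 2, the shared wells and PFF 1. Of those without one, 9.31%, 4.44%, 17.9% and 10.5% were. The part of this in the differences was not tested.

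Of the NK complex lectins in the Trdc class, 7 of 12 tested were called higher and none lower, with a median log2 change of 0.72 against -0.0041 over all genes tested. This list, like the others, was drawn up with earlier results of these data known. Klrb1a was at 187, 192, 214 and 185 CPM in positive cells and at 89.0, 147, 144 and 103 in negative cells of saline 1, saline 2, the shared wells and PFF 1, a log2 change of 0.72 ± 0.06 (edgeR adjusted p = 1.3e-10). Klrb1c, encoding the NK marker NK1.1 of this strain, rose by 0.94 ± 0.10, from 10.1, 29.8, 25.0 and 19.0 CPM to 35.6, 49.9, 44.9 and 33.0 CPM. Positive cells were the higher ones in every source for both genes. Klrb1 (0.45), Klri1 (0.44) and Klri2 (1.11) also rose, as did Klrd1 by 0.12 and Klrk1 by 1.22. The products of Klri1 and Klri2 pair with that of Klre1, which is among the genes that choose the cells. Klrd1 lost its call without the shared wells (0.07) and without PFF 1 (0.11), Klrk1 without saline 1 (1.35) and without PFF 1 (0.17), and Klri2 without PFF 1 (0.97). Of the other Ly49 genes 2 were tested, and Klra1 rose by 3.04 ± 0.48, from 0.13, 0, 0.079 and 0.81 CPM to 0.46, 0, 5.99 and 3.34 CPM. Klra3 gave 0.47 (adjusted p = 0.145). Gm156, which lies between Klri2 and Klra17 (6:129766568-129784270, GRCm38), was among the 10 largest rises of called genes with the same sign in all 4 sources, a condition that Klra1, at 0 in saline 2, did not meet. It was at 339, 328, 320 and 283 CPM in positive cells against 68.2, 122, 140 and 73.7 in negative cells, a log2 change of 1.68 ± 0.09 (adjusted p = 2.9e-15).

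The signalling genes divided. Of 9 adapters, kinases and phosphatases, 5 were called higher and 2 lower in the Trdc class. Tyrobp, the adapter of the activating receptors, was at 1262, 1735, 1350 and 1151 CPM in positive cells against 835, 1428, 1042 and 867 (0.42 ± 0.03). Fcer1g, another adapter, rose by 0.22 ± 0.03, and the phosphatase genes Ptpn6 and Ptpn11, which act below the inhibitory receptors, each rose by 0.22 ± 0.04. Cd247, the zeta chain of the T cell receptor complex, fell by 0.36 ± 0.03 and was lower in all 4 sources, at 384, 318, 395 and 386 CPM against 505, 405, 519 and 494. Hcst, the adapter of NKG2D, fell by 0.36 ± 0.03. Zap70 rose by 0.13 ± 0.03, a call lost without saline 1, the shared wells or PFF 1.

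Genes of conventional T cells were lower in Ly49-positive Trdc cells. Of 9 tested, 5 were called lower and none higher, with a median of -0.84. Il7r, the interleukin-7 receptor chain, fell by 2.16 ± 0.14, from 27.1, 13.6, 18.3 and 31.2 CPM to 4.11, 2.63, 4.16 and 7.55 CPM. Thy1 fell by 1.64 ± 0.14, from 26.2, 16.5, 33.5 and 26.9 CPM to 3.20, 5.25, 9.89 and 11.02 CPM. For both genes every positive value lay below every negative one. Cd6 fell by 1.55 ± 0.19, and Cd5 (-1.20) and Cd2 (-0.84) were called lower at a few CPM, Cd5 with its call lost without saline 1, saline 2 or PFF 1 and Cd2 with its call lost without any 1 of the 4 sources. Among 12 transcription factor genes tested, 4 were called higher and 3 lower. Zbtb16 rose by 1.21 ± 0.11, from 8.24, 15.5, 29.5 and 15.2 CPM to 29.2, 34.2, 51.8 and 41.2 CPM, and Bcl11b, a factor of T lineage commitment, fell by 0.51 ± 0.04. Tcf7 fell by 0.39 and Lef1 by 0.88, although Lef1 was higher in positive cells of saline 2, at 16.6 against 8.60 CPM. Both calls were lost without the shared wells, and that of Lef1 also without PFF 1. Ikzf2 (0.15), Tox (0.13) and Id2 (0.11) rose slightly, and each lost its call without PFF 1, Id2 also without saline 1 or the shared wells.

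Of 10 intraepithelial T cell genes, 2 were called higher and 2 lower. Il2rb, the receptor chain shared by interleukins 2 and 15, was at 788, 778, 755 and 631 CPM against 526, 566, 572 and 442 (0.50 ± 0.03). Cd7 rose by 0.21 ± 0.02. The gut-homing receptor gene Ccr9 fell by 0.67 ± 0.05, from 324, 246, 234 and 292 CPM to 193, 150, 127 and 211 CPM, and Cd160 by 0.14, with its call lost without saline 1, saline 2 or the shared wells. Of 10 cytotoxic effector genes, 5 were called higher and 2 lower. Gzma (0.13), Gzmb (0.17), Nkg7 (0.13), Fasl (0.19) and Xcl1 (0.31) rose; Xcl1 was nevertheless lower in positive cells of the shared wells, at 271 against 296 CPM. Ccl5 fell by 0.13 and Gzmk, which encodes granzyme K, by 1.00 ± 0.11. Of the 6 genes on the class I MHC list (H2-K1, H2-D1, B2m, Tap1, Tap2 and Tapbp), only Tap1 was called (-0.20). That call was lost without saline 1, saline 2 or the shared wells.

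Besides Gm156, the 10 largest rises in the Trdc class among called genes with the same sign in all 4 sources were those of Calcb (2.03), which encodes a calcitonin gene-related peptide, Kctd15 (1.90), Tfcp2l1 (1.58), Setbp1 (1.51), Il4 (1.47), Tubb6 (1.43), Creg2 (1.36), Bmp7 (1.34) and Erg (1.34). Setbp1 was at 37.4, 60.4, 61.9 and 53.8 CPM in positive cells against 10.1, 16.9, 33.2 and 14.7. Most of the others were at a few CPM: Il4 was at 7.76, 3.94, 5.20 and 1.61 CPM against 1.14, 0.86, 1.81 and 1.39, and lost its call without saline 1. Tfcp2l1 and Creg2 lost theirs without saline 1, saline 2 or PFF 1. The 5 largest falls under the same condition were those of Esm1 (-3.53), Ank2 (-3.44), Gm49890 (-3.07), Gria3 (-2.52) and Il7r, all but the last at 10.1 CPM or less in negative cells.

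**Figure D4:**
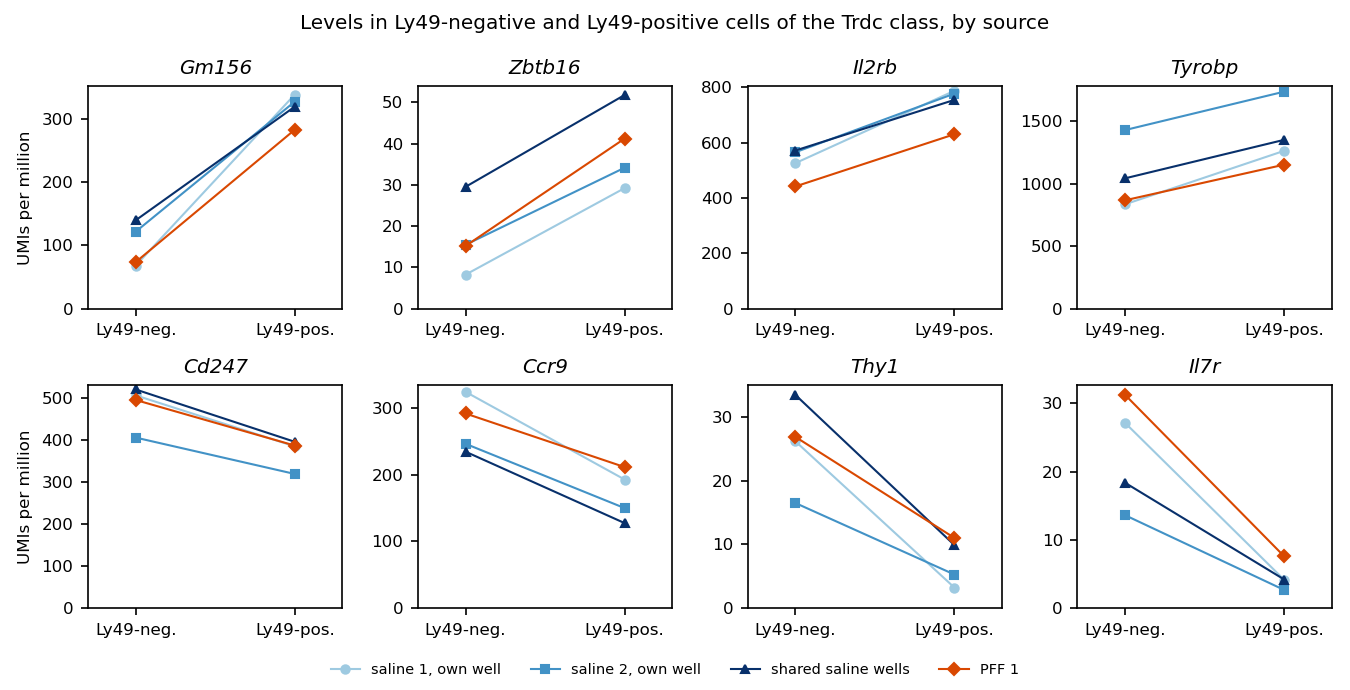
Levels (CPM) of 8 genes in Ly49-negative and Ly49-positive cells of the Trdc class; each line joins the 2 states of 1 source. Gm156, Zbtb16, Il2rb and Tyrobp rise and Cd247, Ccr9, Thy1 and Il7r fall in all 4 sources.

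In CD8 alpha-alpha cells, a class with fewer cells, fewer genes were called: 37 of 11105 were called higher (0.333%) and 32 lower (0.288%), 69 in all (0.621%). Ly49-positive cells held more Zbtb16, Gm156 and Setbp1 and fewer Themis, Syk, Cd6 and Tcf7 transcripts. Zbtb16 was at 35.5, 66.3, 77.6 and 59.98 CPM against 22.9, 32.2, 43.8 and 33.3 in saline 1, saline 2, the shared wells and PFF 1, a log2 change of 0.83 ± 0.09 (edgeR adjusted p = 6.6e-06). Themis, which encodes a T cell receptor signalling protein of thymocyte selection, fell by 1.49 ± 0.07, from 155, 115, 121 and 149 CPM to 59.1, 34.1, 45.9 and 50.5 CPM (adjusted p = 1.9e-13). The ranges of the 2 states did not overlap for Themis, whereas for Zbtb16 they did between sources. Syk, the kinase that Tyrobp and Fcer1g recruit, fell by 2.56 ± 0.29, from 2.98, 20.7, 16.3 and 12.7 CPM to 1.48, 3.35, 2.18 and 2.18 CPM. Gm156 rose by 0.93 ± 0.11 and Setbp1 by 0.85 ± 0.14. Positive cells had median depths of 3563, 9885, 5762 and 8532 UMIs against 3280, 7187.5, 5243 and 7587, and thinning to 2000 UMIs left 19 genes higher and 15 lower. Leaving out PFF 1 gave 20 and 25 calls and leaving out the shared wells 23 and 22. The 2 states may also differ in make-up, because cells with a missed Trdc or Cd8b1 transcript can fall in this class. The part of such cells in the differences was not tested.

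By list, 3 of 10 NK complex lectins were called higher in CD8 alpha-alpha cells, Klrc2 (2.66) and Klrk1 (2.36) at 7.88 CPM or less, and Klrb1a (0.27). Klrc2 and Klrb1a lost their calls without PFF 1, and Klrk1 without saline 1. Of 6 conventional T cell genes tested 3 were called lower, Cd6 (-2.85), Cd5 (-2.68) and Thy1 (-1.55), against a median of -0.0012 over all genes. Cd5 and Cd6 were at 0 CPM in both states of saline 2. Cd5 lost its call without saline 1, and Thy1 without saline 1 or PFF 1. Tcf7 fell by 0.67 ± 0.10, Ccr9 by 0.43 ± 0.06, Cd247 by 0.36 ± 0.05 and Bcl11b by 0.26 ± 0.06, the last with its call lost without saline 1, saline 2 or the shared wells. EdgeR called none of the 10 cytotoxic effector genes (3 at an unadjusted p under 0.05) and none of the 6 class I MHC genes (1 at that level), and DESeq2 called 0 of either list. Klra1 (1.05, adjusted p = 0.403) and Klra3 (0.41, adjusted p = 0.712) did not pass. The other genes named by size were Slc16a11 (0.99), C1qtnf6 (0.85), Arfgef3 (0.72), Plce1 (0.63) and Farp1 (0.60) among the rises, and Ubash3a (-1.98) and Gm43434 (-1.80) among the falls. Of these, C1qtnf6 lost its call without saline 1 or PFF 1, Arfgef3 without the shared wells, and Ubash3a and Gm43434 without saline 1, saline 2 or PFF 1.

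The classes hold different cells of the same 4 sources, and 59 genes were called in both, which is 85.5% of the 69 called in CD8 alpha-alpha cells and 7.53% of the 784 called in the Trdc class. They may not be separate cell types, because cells with a missed Trdc transcript can fall in the CD8 alpha-alpha class. Of the 59, 31 were higher in both, 26 lower in both, and the other 2 differed in sign. Whether an effect differed in size between the classes was not tested.

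**Figure D5:**
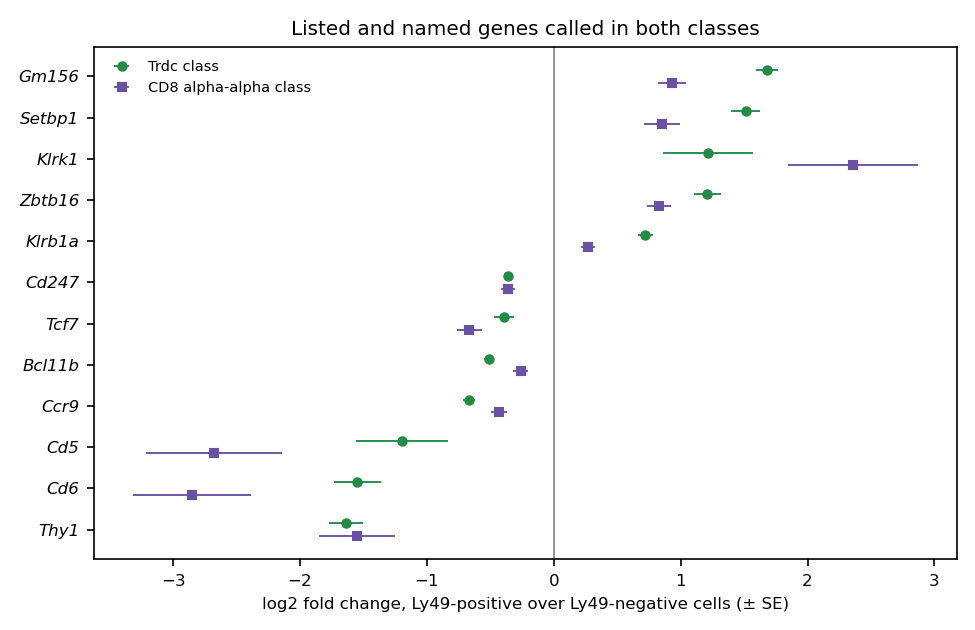
Log2 fold change of Ly49-positive over Ly49-negative cells (± SE, edgeR with source as a block) for the 12 listed or named genes called in both classes. All 12 have the same sign in the Trdc class and in CD8 alpha-alpha cells, 5 higher and 7 lower.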

How the data were processed

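The deposited values were raw UMI counts per gene and cell; per the file headers they came from Cell Ranger 7.0.0, and per the submitters' processing notes the build was mm10. How wells were joined, and the annotation release, is not given in the sources available. Cells needed at least 500 UMIs and 200 genes, with no more than 15% of UMIs mitochondrial. A class needed 1 UMI of each defining gene, and a cell with 3 or more UMIs of another lineage's markers was in no class; CD3-negative lymphocytes needed 1000 UMIs and 2 of 9 lymphocyte genes. No doublet caller was run; leaving out the 5% of cells with the most UMIs was tried instead. A cell was Ly49-positive at 1 UMI over the 6 members. Wells shared few barcode sequences, at most 119 between saline 2 and PFF 1. Library totals of the 3 own wells were 20788920, 64940311 and 142955760 UMIs.

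Counts were summed per source and class and tested with edgeR 4.0.16 (TMM, filterByExpr; DESeq2 1.42.0 as an alternative) in R 4.3.3, for PFF where each library had 50 cells of a class and for Ly49 status where each source had 20 positive cells; the scripts were tested on simulated data. Named genes were the 10 largest and 5 lowest changes called with the same sign in every source, plus list genes. Members and lists were chosen with earlier results of these data known. P-values measure the spread between these libraries and wells, which may be technical.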

Additional observations from a re-analysis of the deposited data

How the results depend on the processing

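No paired analysis was possible because the saline and PFF groups share only 1 replicate number. Precision is limited by 1 PFF library and by 27, 26, 80 and 60 CD3-negative cells. For Ly49-positive against negative cells the source of cells is the block: with no replicate block by source, 2 genes were called higher and 8 lower in the Trdc class, and 0 and 1 in CD8 alpha-alpha cells. Under the alternatives, 358 shares of positive cells moved by less than 1 SD over the sources and 27 by more. The mean share of Ly49-positive CD8 alpha-alpha cells, 53.9%, became 48.5% when any UMI of another lineage excluded a cell, 47.8% when positivity needed 2 UMIs and 45.9% after thinning to 2000 UMIs. That of CD3-negative cells, 24.7%, became 14.0% when they needed 3000 UMIs and no Trbc1, Trbc2 or Trdc UMI, which left 6, 4, 8 and 14 cells.

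For PFF against saline in the Trdc class, the low-count filter turned 0 calls into 18 higher and 51 lower when dropped, DESeq2 called 1 lower, and the files as deposited gave 895 and 1136. In CD8 alpha-alpha cells, with 3 higher and 5 lower, the counts were 1 and 0 with RLE normalization and with at least 1000 UMIs per cell, 23 and 48 with no low-count filter, 1 and 1 with DESeq2, and 1342 and 1345 with the files as deposited. They were 0 and 0 without Epcam and Cdh1 in the exclusion list, with class thresholds of 2 UMIs, with barcodes of more than 1 well left out, and when the shared wells entered as one more saline library. In the Trdc class, Klra6 reversed to -0.032 with the files as deposited and Klra7 to 1.64 without saline replicate 1 (-0.86 without saline replicate 2). The cause was not tested.

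For Ly49-positive against negative cells in the Trdc class, DESeq2 called 215 higher and 109 lower and thinning gave 269 and 144. Leaving out each source gave 299 to 448 higher and 177 to 268 lower. In CD8 alpha-alpha cells the counts were 71 and 57 with no low-count filter, 5 and 10 with DESeq2, 59 and 50 when positivity needed 2 UMIs, 78 and 58 without Epcam and Cdh1 in the exclusion list (chosen after seeing the data, as was the barcode alternative), and 19 and 15 after thinning, where fewer genes were tested. Leaving out each source gave 20 to 33 higher and 22 to 34 lower. Among named genes, 688 alternative values kept their call or lack of one, 178 lost it and 6 gained one, with the sign unchanged in each.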

Other observations

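Klra17 and Klra2, both Ly49 genes, were found outside the lymphocyte classes. Klra17 was detected in 68.4%, 80%, 84.6% and 92.5% of the cells with at least 3 UMIs of Siglech, a marker of plasmacytoid dendritic cells, in saline 1, saline 2, the shared wells and PFF 1, which held 76, 10, 91 and 80 such cells. In the Trdc class it was detected in 0.068%, 0.11%, 0.34% and 0.12% of cells. Klra2 was detected in 42.9%, 62.5%, 57.6% and 50% of the cells with at least 3 UMIs of Csf1r, the macrophage growth factor receptor gene, from 7, 32, 33 and 62 cells, and in 1.32%, 0, 1.10% and 1.25% of the Siglech cells. The cells with Csf1r also held Klra17, at 28.6%, 37.5%, 30.3% and 32.3%. The 6 members together were detected in at most 8.75% of either kind of cell, a share of PFF 1 cells with Siglech.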
